A study of Mus musculus with 2 samples.

Results

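Fibroblasts of mouse epididymal fat were compared between hashtags A0304, A0305 and A0307 (called set A0304-A0307) and hashtags A0308, A0309 and A0310 (set A0308-A0310). A hashtag is an antibody with a DNA barcode that marks all cells of 1 suspension before suspensions are pooled. A cell counted as a fibroblast if at most 25% of its reads were mitochondrial, if at least 3 of the 5 markers Pdgfra, Lum, Dpt, Clec3b and Mfap5 reached 100 CPM (counts scaled to a common total per cell), and if C1qa, C1qb, Cdh5 and Upk3b summed to under 500 CPM. This gave 892 fibroblasts in set A0304-A0307 and 827 in set A0308-A0310, together 1719 of the 11750 cells with a hashtag call. The cells were the stromal vascular fraction, the part of fat left after digestion without its adipocytes, from male C57BL/6J mice. Per the labels, feeding was with a standard diet (16 weeks) or with high-fat diet (8 or 16 weeks). All cells went through 1 pool. Which hashtag marked which diet, and whether hashtags were separate animals, is not known here. The sets are therefore named by their hashtags alone, and each p-value measures only the spread between hashtag populations. Hashtags A0301, A0302 and A0303 lie outside the comparison and are quoted only for their levels.

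Fibroblasts of fat build the collagen, elastic fibre and proteoglycan matrix around adipocytes, and the same mesenchymal lineage holds the progenitors of new adipocytes. In mouse fat, cells with Dpp4 and Pi16 are known as early progenitors of the interstitial spaces, and cells with Icam1, Pparg or Fabp4 as preadipocytes committed to become adipocytes. Stromal fibroblasts also secrete complement proteins, a serum cascade that tags and lyses targets and is cleaved stepwise by its own proteases, along with chemokines and growth factors.

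Each hashtag gave enough cells for a sum of reads. The fibroblasts numbered 183 in hashtag A0310 and 278 to 348 in each of the other 5. Their summed reads ran from 17922009 to 20605958 in set A0304-A0307 and from 13666319 to 18156422 in set A0308-A0310. The median fibroblast held 49634 to 62479 reads in set A0304-A0307 and 45273 to 65343 in set A0308-A0310, so depth overlapped between the sets. The 5 fibroblast markers summed to 9738 to 10568 CPM in set A0304-A0307 and 7886 to 8117 CPM in set A0308-A0310, while the 4 exclusion genes summed to at most 26.4 CPM in set A0304-A0307 and 38.7 CPM in set A0308-A0310. Col3a1, a collagen that the rule did not use, stood at 10549 CPM or more in every hashtag. Of the fibroblasts, 196 had exactly 3 markers, and 182 further cells missed the rule with exactly 2 markers. The exclusion sum lay between 400 and 500 CPM in 10 fibroblasts and between 500 and 600 CPM in 5 cells that were left out. No cell barcode was shared between hashtags.

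Markers of other cell types and hashtag purity differed between single hashtags. In the fibroblast sums, the 10 macrophage markers summed to 289, 784 and 615 CPM in hashtags A0304, A0305 and A0307, against 335, 470 and 1500 CPM in A0308, A0309 and A0310. A0310 stood above the rest, and the others overlapped. The 6 mural cell markers summed to 15.8 to 17.4 CPM in set A0304-A0307 and 35.5 to 138 CPM in set A0308-A0310, and the T and NK cell markers to 4.24 to 10.3 CPM in set A0304-A0307 and 14.6 to 74.0 CPM in set A0308-A0310; neither overlapped. The endothelial markers (29.4 to 42.3 CPM in set A0304-A0307 and 45.9 to 72.8 CPM in set A0308-A0310) and the adipocyte markers (9.12 to 11.01 CPM in set A0304-A0307 and 13.5 to 16.6 CPM in set A0308-A0310) also did not overlap. The part of these markers in the results below was not tested. Over 12 lists of other cell types, none of 52 entries tested was called in the gene test described further on. Of these entries, 17 had an unadjusted p under 0.05, against 1993 of 16409 over all genes. DESeq2 called 8 of them, against 797 of 27733 genes. Both shares were higher than among all genes, so the lack of calls does not show equal levels. Some genes recur between the lists, which include the exclusion genes that the fibroblast rule itself limits. With the exclusion genes held under 100 CPM, the gene test described further on called 234 genes. The called hashtag had the highest tag count in 92.0% to 100% of the fibroblasts of each hashtag of set A0304-A0307, against 71.8%, 94.3% and 93.4% in A0308, A0309 and A0310, with A0308 the lowest.

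The share of fibroblasts among cells with at most 25% mitochondrial reads did not overlap between the sets. It was 25.3%, 25.8% and 24.4% in hashtags A0304, A0305 and A0307, against 24.2%, 20.1% and 15.0% in A0308, A0309 and A0310. The mitochondrial limit kept 1099 of 1209, 1222 of 1343 and 1226 of 1340 called cells in A0304, A0305 and A0307. In A0308, A0309 and A0310 it kept 1438 of 1611, 1472 of 1691 and 1218 of 1538. The part of this loss in the shares was not tested. The means differed by 5.38 percentage points (exact 2-sided permutation test, p = 0.1, the smallest that 3 against 3 allows, adjusted to 0.15 over 3 shares). The difference was 2.999 points without hashtag A0310 and 7.59 points without A0308, the lowest and the highest as each hashtag was left out. Macrophages were cells within the same mitochondrial limit with at least 3 of C1qa, C1qb, C1qc, Adgre1 and Csf1r at 100 CPM. Their Pdgfra, Lum, Dpt, Cdh5 and Upk3b had to sum to under 500 CPM. The share of macrophages ran the other way, at 27.0%, 29.7% and 32.7% in set A0304-A0307. It was 40.5%, 47.5% and 38.3% in set A0308-A0310 (exact permutation p = 0.1). Among cells that were not macrophages, a denominator chosen after the data were seen, fibroblasts made up 34.7%, 36.7% and 36.2% in set A0304-A0307 and 40.7%, 38.3% and 24.3% in set A0308-A0310. These last shares overlapped, and their means differed by 1.43 points (exact permutation p = 1).

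Within the fibroblasts, the share of cells carrying each of 2 marker groups lay far apart between the sets. A fibroblast was counted in a state if at least 3 of the state's 5 markers reached 100 CPM, so a cell could be in several states or none. The state of Dpp4, Pi16, Cd55, Sema3c and Anxa3 held 52.9%, 49.2% and 52.8% of the fibroblasts of hashtags A0304, A0305 and A0307, against 30.7%, 24.7% and 33.3% in A0308, A0309 and A0310. The lowest value of set A0304-A0307 lay well above the highest of set A0308-A0310, and the means differed by 22.1 percentage points. The state of C4b, Mdk, Col15a1, Ggt5 and Sparcl1 held 27.0%, 25.4% and 25.4% in set A0304-A0307, against 47.7%, 50.3% and 47.0% in set A0308-A0310. That difference was -22.4 points, again with no overlap. For both states the exact permutation test gave p = 0.1, adjusted to 0.2 over the 6 states.

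Thinning every fibroblast to 5000 reads left differences of 19.5 points for the Dpp4 state and -21.8 points for the C4b state. Leaving out each hashtag in turn gave 19.6 to 23.9 points for the first and -23.1 to -21.4 for the second. Only 5.69% to 8.99% of fibroblasts in set A0304-A0307 and 5.74% to 10.9% in set A0308-A0310 carried both states. The state of Apod, Abca8a, Hsd11b1, Mgp and Cxcl14 also did not overlap, with 27.7%, 24.8% and 20.4% in set A0304-A0307 against 31.3%, 32.1% and 31.1% in set A0308-A0310 (exact permutation p = 0.1, adjusted to 0.2). The states led by Ptx3 and Has1, by Fmo2 and Gdf10, and by Cilp and Col8a1 overlapped between the sets, with exact permutation p of 0.7, 0.5 and 0.4. The Cilp Col8a1 state differed by -5.01 points, and with at least 2 of 5 markers by -6.965 points with no overlap (exact permutation p = 0.1). In hashtags A0301, A0302 and A0303, the Dpp4 state held 43.1%, 48.6% and 46.8% of the fibroblasts and the C4b state 25.5%, 23.2% and 21.0%.

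**Figure D1:**
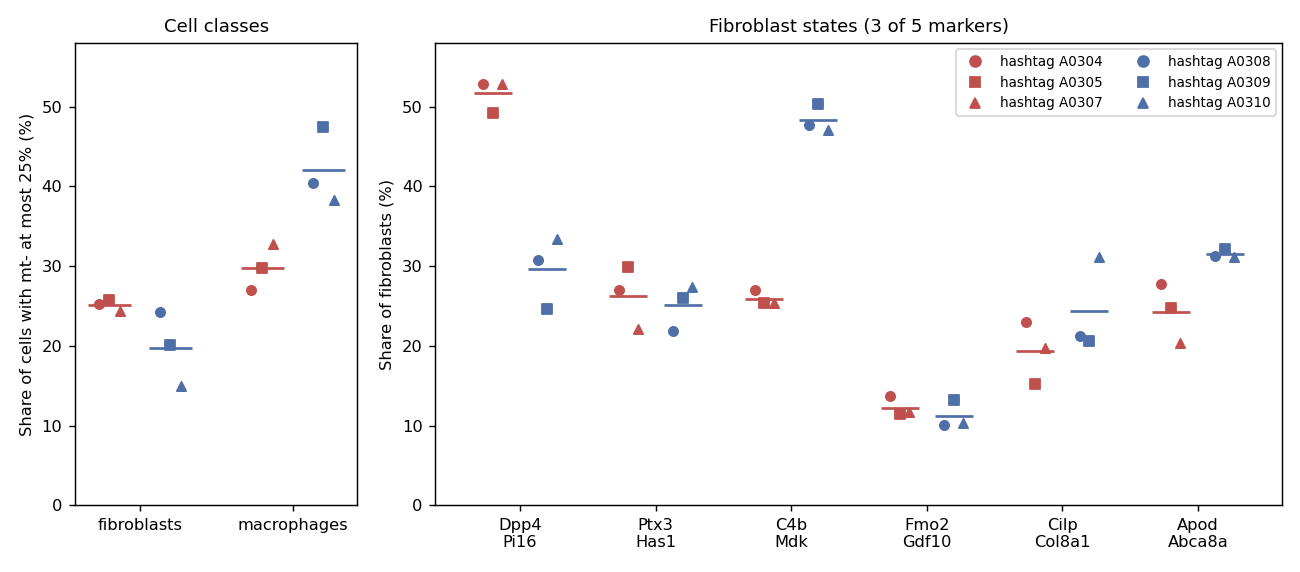
Shares by hashtag. The left panel plots fibroblasts and macrophages as percent of cells with at most 25% mitochondrial reads, and the right panel plots 6 marker-defined states as percent of fibroblasts; each point is 1 hashtag and each bar the mean of 3. The Dpp4 Pi16 state lies between 49.2% and 52.9% in set A0304-A0307 and at most at 33.3% in set A0308-A0310, and the C4b Mdk state shows the opposite order.

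Reads were then summed over the fibroblasts of each hashtag and tested gene by gene with edgeR's quasi-likelihood test, 3 sums against 3. Among 16409 genes tested, 98 were higher in set A0304-A0307 (0.597%) and 106 were lower (0.646%) at an adjusted p under 0.05. The 3 values of 1 set lay above the 3 of the other for all 204. A call from 3 sums against 3 favours such separation, so it adds no support to the calls. The median log2 fold change over all genes was -0.01. Calls are those of edgeR except where another tool is named; DESeq2 called 797 genes. A sum over cells cannot tell a smaller share of cells with a gene from less of its RNA in each cell. The number of calls depended on single hashtags: it was 14 without hashtag A0304, 97 without A0305, 34 without A0307, 82 without A0308, 29 without A0309 and 280 without A0310. With only cells whose own tag was highest, 174 genes were called. Of the 60 called genes named by the rule given with the processing, 9 were called also without hashtag A0304: C4b, Igf1, Tmem176a, Aspn, Anxa3, Qpct, Aif1l, Duoxa1 and Mrgprg.

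**Figure D2:**
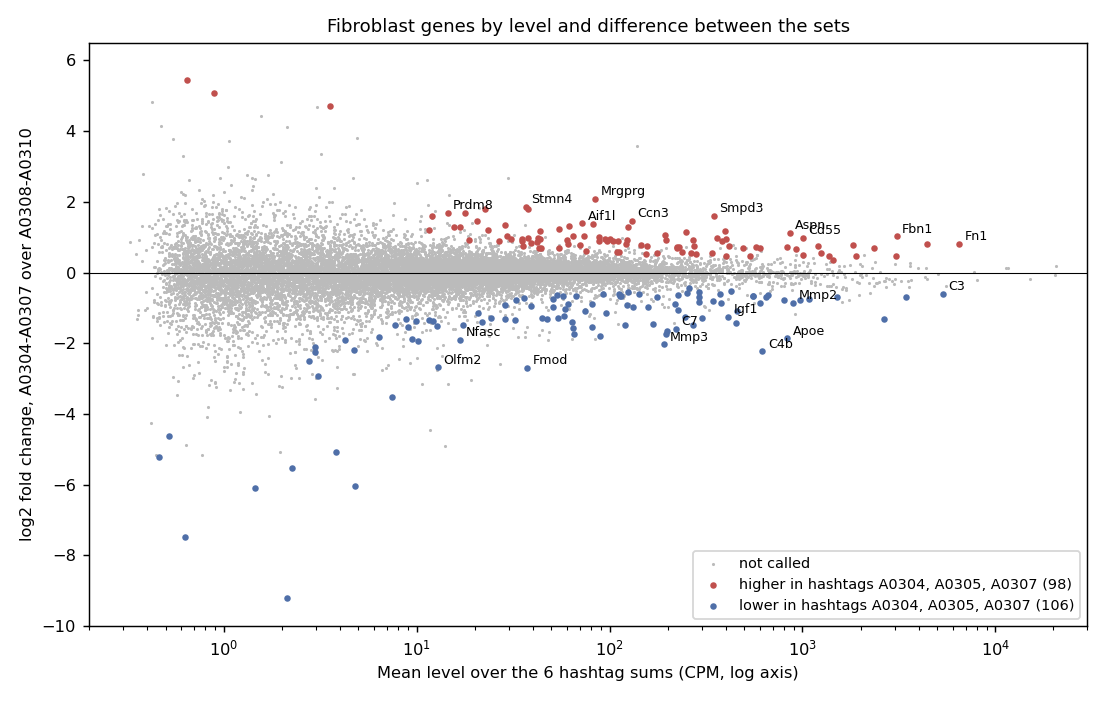
Each point is 1 gene of the fibroblast sums, placed by its mean level over the 6 hashtags (CPM, log axis) and its log2 fold change, set A0304-A0307 over set A0308-A0310. Red points are the 98 genes called higher and blue points the 106 called lower; well-expressed genes such as Fbn1 and Fn1 lie above 0, and C4b, Apoe and Mmp3 lie below.

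Most genes of the Dpp4 Pi16 progenitor list were higher in set A0304-A0307. Of the 15 members, 9 were called higher and 0 lower with edgeR, 11 higher and 0 lower with DESeq2, and the list's median log2 fold change was 0.94. The list shares 4 called members with the state above and was read in the same cells, so it is not separate evidence. Smpd3, a neutral sphingomyelinase that makes ceramide, stood at 488, 610 and 481 CPM in hashtags A0304, A0305 and A0307, against 218, 154 and 140 CPM in A0308, A0309 and A0310. The lowest value of set A0304-A0307 was more than double the highest of set A0308-A0310, with a log2 fold change of 1.60 ± 0.18 (SE) and an adjusted p of 0.00673. Cd55, which speeds the decay of complement convertases on the cell surface, reached 1431, 1146 and 1425 CPM in set A0304-A0307 against 706, 584 and 713 CPM in set A0308-A0310. Its log2 fold change was 0.98 ± 0.11 (adjusted p = 0.00771), though a near-identical copy, Cd55b, also passed, so reads may be divided between the copies.

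Anxa3, a calcium-dependent membrane-binding annexin, had the steadiest values of the list. It stood at 509, 506 and 484 CPM in set A0304-A0307 and at 272, 252 and 266 CPM in set A0308-A0310, a log2 fold change of 0.90 ± 0.07 (adjusted p = 0.00295). Dpp4 itself, a cell-surface dipeptidase, had 257, 261 and 257 CPM in set A0304-A0307 against 156, 108 and 141 CPM in set A0308-A0310, with a log2 fold change of 0.91 ± 0.13 (adjusted p = 0.0164). Sema3c, a secreted semaphorin, was higher by 0.97 ± 0.12 (adjusted p = 0.0105). Wnt2, a Wnt ligand, was higher by 1.47 ± 0.22 at a low level of 27.4, 28.4 and 35.4 CPM in set A0304-A0307 against 11.1, 8.11 and 13.3 CPM in set A0308-A0310; its call was lost when cells were thinned or averaged. Efhd1, Limch1 and Uchl1 completed the called members. Pi16, the other name gene of the list, did not pass: it had 748, 665 and 667 CPM in set A0304-A0307 and 494, 592 and 777 CPM in set A0308-A0310, with hashtag A0310 the highest of all (adjusted p = 0.805).

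Complement genes went the other way. Of the 13 members tested, 7 were lower in set A0304-A0307 and 1, Cd55, was higher; the median was -0.68. C4b, the fourth complement component of the classical pathway (chromosome 17, 34728380 to 34743882, minus strand, GRCm38), stood at 202, 224 and 239 CPM in hashtags A0304, A0305 and A0307, against 1170, 1093 and 796 CPM in A0308, A0309 and A0310. Every value of set A0308-A0310 was more than 3 times every value of set A0304-A0307, with a log2 fold change of -2.23 ± 0.15 (adjusted p = 0.00177). The near-identical copy C4a was also called lower at 3.26 to 5.29 CPM in set A0304-A0307 against 12.9 to 16.0 CPM in set A0308-A0310, and reads of the pair may be divided between them. C4b was among the markers of the C4b Mdk state.

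C2 and Cfb are the serine proteases of the classical and the alternative convertase. C2 had 41.7, 44.8 and 34.2 CPM in set A0304-A0307, against 173, 149 and 91.6 CPM in set A0308-A0310 (log2 fold change -1.80 ± 0.23, adjusted p = 0.011). Cfb had 75.6, 106 and 93.2 CPM in set A0304-A0307 against 399, 289 and 212 CPM in set A0308-A0310 (log2 fold change -1.73 ± 0.23, adjusted p = 0.012). Hashtag A0308 was the highest and A0310 the lowest of set A0308-A0310 for both genes, yet neither came near set A0304-A0307. Both lie next to each other on chromosome 17, Cfb at 34856374 to 34862518 and C2 at 34862604 to 34898265, and the annotated transcript Gm20547 (34856412 to 34882042) overlaps both; it too was lower, by -1.75 on the log2 scale, and reads of the 3 cannot be fully told apart.

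C3, the central component that all pathways cleave, was the most abundant member. It stood at 4165, 4666 and 4020 CPM in set A0304-A0307 and at 7405, 6286 and 5542 CPM in set A0308-A0310, a log2 fold change of -0.60 ± 0.11 (adjusted p = 0.0441). Serping1, the inhibitor of the C1 proteases, was lower as well, at 2686, 2737 and 2469 CPM in set A0304-A0307 against 4530, 4395 and 3749 CPM in set A0308-A0310 (log2 fold change -0.70 ± 0.09, adjusted p = 0.011). C1ra, one of those proteases, was lower by -0.68 ± 0.09 (adjusted p = 0.0149). C7, part of the membrane attack complex, was lower by -1.59 ± 0.28 (adjusted p = 0.0417), a call lost with missing low values filled in (0.0519), without a filter on low counts (0.121), with thinned cells (0.152) and with only cells whose own tag was highest (0.0542). Components and the C1 inhibitor were both lower, and only Cd55 among the 8 called members was higher.

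**Figure D3:**
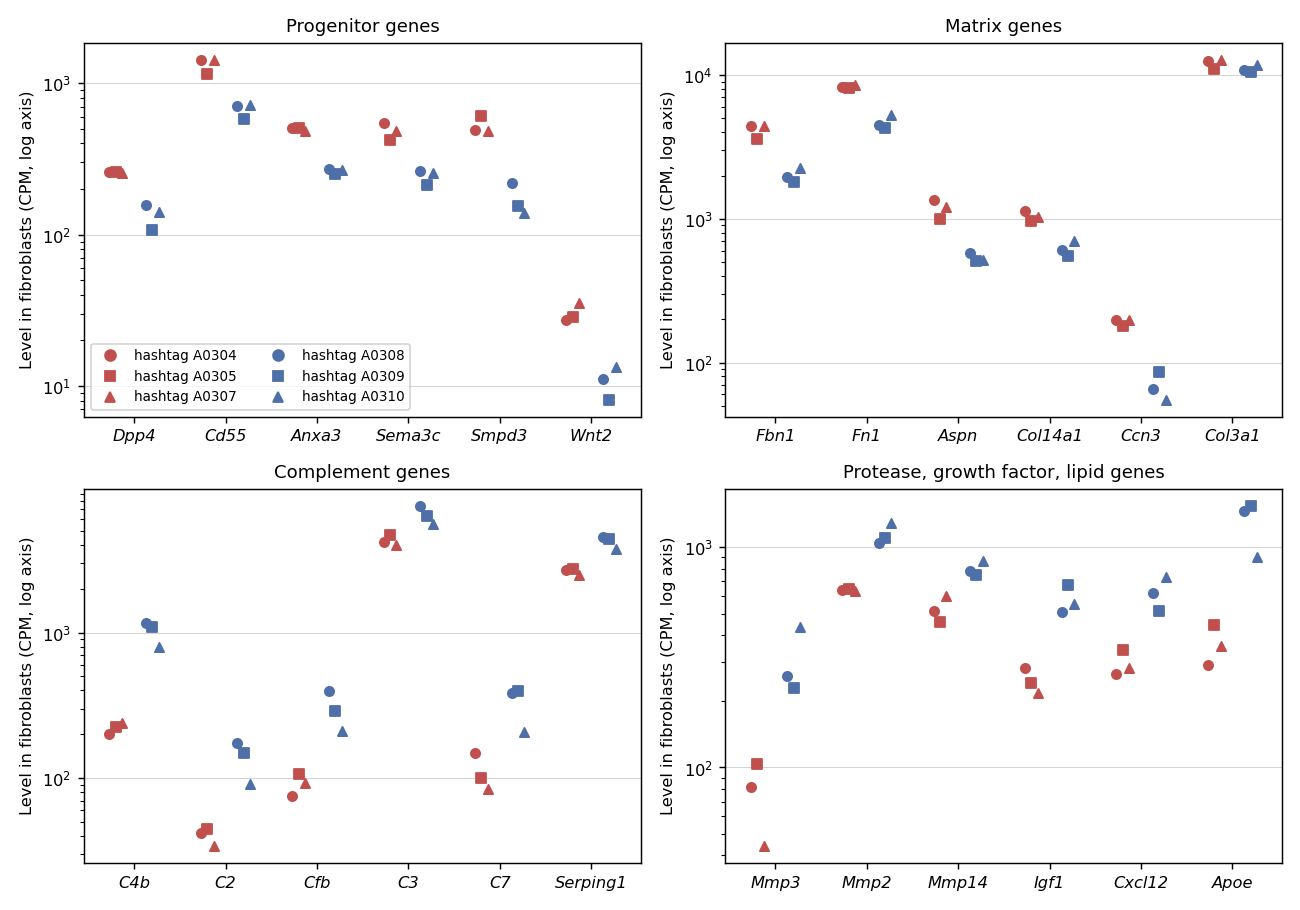
Levels of 24 genes in fibroblast sums (CPM, log axis), each point 1 hashtag, set A0304-A0307 in red left of set A0308-A0310 in blue. Dpp4 Pi16 progenitor genes and Fbn1, Fn1, Aspn, Col14a1 and Ccn3 lie higher in set A0304-A0307, complement genes, proteases, Igf1, Cxcl12 and Apoe lie lower, and Col3a1 overlaps.

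Matrix genes were called member by member. Of the 6 fibrillar collagens tested, edgeR called 0 (2 at an unadjusted p under 0.05) and DESeq2 called 1, higher. Col3a1, the type III chain, had 12635, 11063 and 12830 CPM in set A0304-A0307 and 10915, 10549 and 11820 CPM in set A0308-A0310, which overlap (adjusted p = 0.63). Col1a2, a type I chain, had 4347, 3614 and 4469 CPM in set A0304-A0307 against 4245, 4618 and 4618 CPM in set A0308-A0310 (adjusted p = 0.632). Of 9 other matrix collagens, 5 lay above 0 and 4 below. Among them edgeR called 1, higher, and DESeq2 called 1 higher and 1 lower. The edgeR call was Col14a1, a collagen that sits on fibril surfaces. It had 1130, 966 and 1027 CPM in set A0304-A0307 against 605, 554 and 704 CPM in set A0308-A0310 (log2 fold change 0.73 ± 0.10, adjusted p = 0.0147).

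Elastic fibre genes held 4 higher and 1 lower call among 14, with a median of 0.12. Fbn1, fibrillin-1, the backbone of microfibrils, reached 4448, 3571 and 4409 CPM in hashtags A0304, A0305 and A0307, against 1960, 1794 and 2253 CPM in A0308, A0309 and A0310. All values of set A0304-A0307 exceeded all of set A0308-A0310, by 1.03 ± 0.11 on the log2 scale (adjusted p = 0.00637). Emilin2, an elastic-fibre glycoprotein, was higher by 0.93 ± 0.11 (adjusted p = 0.00876) and Efemp1, fibulin-3, by 0.67 ± 0.09 (adjusted p = 0.0147). Mfap5 was called higher too, but it is a marker of the fibroblast rule, as is Dpt, so their calls are no finding. Fbln1, fibulin-1, was the member called lower, by -0.88 ± 0.17 (adjusted p = 0.0492).

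The matricellular list gave 3 higher calls of 19 although the median was -0.27. Matricellular proteins bind the matrix and modulate cells, but the list also holds structural matrix proteins such as Fn1 and Vcan. Fn1, fibronectin, was among the most abundant of all called genes, at 8323, 8104 and 8587 CPM in set A0304-A0307 against 4495, 4308 and 5268 CPM in set A0308-A0310 (log2 fold change 0.81 ± 0.08, adjusted p = 0.00637). Ccn3, a secreted modulator of growth factor and integrin signalling, had 198, 180 and 198 CPM in set A0304-A0307 against 65.6, 85.9 and 55.1 CPM in set A0308-A0310 (log2 fold change 1.46 ± 0.16, adjusted p = 0.00673). The third, Vcan, a hyaluronan-binding proteoglycan, was higher by 0.70 ± 0.12 (adjusted p = 0.0367). Aspn, asporin, a small proteoglycan that binds collagen, had 1351, 992 and 1213 CPM in set A0304-A0307 against 578, 511 and 520 CPM in set A0308-A0310 (log2 fold change 1.12 ± 0.12, adjusted p = 0.00637). Fmod, fibromodulin, another collagen-binding small proteoglycan, had the opposite call at 8.31, 14.0 and 8.20 CPM in set A0304-A0307 against 83.6, 86.3 and 24.7 CPM in set A0308-A0310; it lost the call when missing low values were filled (adjusted p = 0.253), without a filter on low counts (0.0968) and with thinned cells (0.183), and 1 cell held up to 49.6% of its reads in a hashtag.

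Several proteases that cut this matrix were lower. Of 24 matrix proteases and inhibitors, edgeR called 5 lower and 0 higher and DESeq2 8 lower and 1 higher; 7 members had a log2 fold change above 0, and the median was -0.27. Mmp2, gelatinase A, stood at 641, 648 and 634 CPM in set A0304-A0307, against 1051, 1098 and 1296 CPM in set A0308-A0310 (log2 fold change -0.86 ± 0.08, adjusted p = 0.00637). Mmp14, the membrane protease that activates pro-Mmp2, had 513, 459 and 602 CPM in set A0304-A0307 against 778, 750 and 866 CPM in set A0308-A0310, and Ctsk, a collagen-degrading cathepsin, had 387, 500 and 410 CPM in set A0304-A0307 against 676, 611 and 723 CPM in set A0308-A0310. Neither overlapped, with log2 fold changes of -0.62 ± 0.11 and -0.65 ± 0.11 (adjusted p = 0.0367 and 0.0346). Mmp3, stromelysin-1, fell furthest, at 81.6, 104 and 44.0 CPM in set A0304-A0307 against 260, 229 and 437 CPM in set A0308-A0310 (log2 fold change -2.03 ± 0.33, adjusted p = 0.0326); 1 cell held up to 48.2% of its reads in a hashtag, and the call was lost without a filter on low counts and when cells were thinned or averaged. Mmp11 was the fifth, at -0.66. The list does not hold every such protease. Outside it, the metalloprotease genes Adamts14 and Adamts19 were called higher, by 0.88 and 1.68 (edgeR, adjusted p = 0.0474 and 0.0368). Among the enzymes of collagen maturation, Pcolce, an enhancer of procollagen C-propeptide cleavage, was lower by -0.67 ± 0.07 (adjusted p = 0.00637), and its relative Pcolce2 was higher by 0.46 ± 0.08 (adjusted p = 0.0395).

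Among secreted growth and chemotactic factors, Igf1 and Cxcl12 were called lower. Igf1, the insulin-like growth factor, had 282, 242 and 218 CPM in set A0304-A0307, against 511, 675 and 553 CPM in set A0308-A0310 (log2 fold change -1.25 ± 0.13, adjusted p = 0.00637). It lost the call when hashtags A0301, A0302 and A0303 shared the estimate of spread. Igfbp4, a binding protein that holds back Igf1, was lower by -0.78 ± 0.14 (adjusted p = 0.039). Cxcl12, a chemokine that retains leukocytes and progenitors, had 266, 342 and 285 CPM in set A0304-A0307 against 619, 516 and 730 CPM in set A0308-A0310 (log2 fold change -1.08 ± 0.14, adjusted p = 0.011). Il1r1, the receptor of interleukin-1, was lower by -0.91 ± 0.11 (adjusted p = 0.00771). The cytokine and chemokine list gave 3 lower and 0 higher calls of 27 with edgeR, and 7 lower and 4 higher with DESeq2. Of its members, 12 had a log2 fold change above 0 and 15 below, with a median of -0.10. The growth factor list gave 2 lower and 0 higher calls of 28 with edgeR, and 6 lower and 1 higher with DESeq2.

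The committed preadipocyte list held 3 lower calls of 14 and a median of -0.73, with every member at a log2 fold change below 0. Apoe, a lipid-carrying apolipoprotein, had 291, 444 and 358 CPM in set A0304-A0307, against 1468, 1543 and 904 CPM in set A0308-A0310 (log2 fold change -1.86 ± 0.22, adjusted p = 0.00885). Macrophages express Apoe at 3449 to 7322 CPM here, and macrophage markers were present in the fibroblast sums as given above. Adipocyte and endothelial markers were lower in sum as well, as given above: of the adipocyte markers 3 were tested, all below 0, with a median log2 fold change of -1.64 and 0 calls by edgeR. The part of macrophages, adipocytes and endothelial cells in the result was not tested. Fabp4, the fatty acid carrier of adipocytes, was lower by -1.25 ± 0.17 (adjusted p = 0.0146), a call lost when cells were thinned (0.48) or averaged (0.435) and with exclusion genes under 100 CPM (0.12). Sparcl1 was lower by -0.78 ± 0.11 (adjusted p = 0.0202). It is also a marker of the C4b Mdk state read in the same cells, so its call is not separate evidence. Pparg, the regulator of adipocyte formation, did not pass, at a log2 fold change of -0.99.

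The list of BMP and Wnt signalling gave 2 higher and 0 lower calls of 24 with edgeR and 3 higher and 6 lower with DESeq2, and its median was -0.22, with 13 members below 0. The edgeR calls were Wnt2 and Bmp6, the second at 72.1, 55.0 and 55.6 CPM in set A0304-A0307 against 33.2, 20.3 and 25.9 CPM in set A0308-A0310 (log2 fold change 1.18 ± 0.20, adjusted p = 0.0355, and 0.0638 with only cells whose own tag was highest). In the TGF-beta list 1 of 20 was called: Fstl1, a secreted follistatin-like glycoprotein, stood at 5844, 5042 and 6089 CPM in set A0304-A0307 against 3174, 2931 and 3541 CPM in set A0308-A0310 (log2 fold change 0.80 ± 0.09, adjusted p = 0.00771). In the basement membrane list edgeR called 1 of 13: Nid1, nidogen-1, was higher by 0.47 ± 0.08 (adjusted p = 0.0395). DESeq2 called 1 higher and 3 lower there, 7 members lay below 0, and the median was -0.03. Cygb, cytoglobin, was lower by -0.86 ± 0.10 in the list of Cd142-type regulators (adjusted p = 0.00876). Cdh11, a mesenchymal cadherin, was lower by -0.94 ± 0.16 (adjusted p = 0.0354), and Dbp, a clock-driven transcription factor, by -1.38 ± 0.22 (adjusted p = 0.0275); both lost the call when cells were averaged.

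Among 268 entries tested in 15 further lists, 53 were at an unadjusted p under 0.05, against 1993 of 16409 over all genes. DESeq2 called 23 of the entries, against 797 of 27733 genes. With edgeR no gene was called in these lists. They cover the responses to NF-kB, interferon and glucocorticoid, MHC genes, immediate early genes, heat shock, the unfolded protein response, antioxidants, glycolysis, sterol synthesis, cell cycle, senescence, mitochondrial respiration, ribosomal proteins and fibrillar collagens. The medians reached from -0.44, in the interferon and the MHC lists, to 0.36, in the cell cycle list. Some lists leaned to 1 side without a call. Of 25 immediate early genes, 23 had a log2 fold change below 0 and 9 an unadjusted p under 0.05. Of 17 antioxidant genes, 14 lay below 0 and 8 had an unadjusted p under 0.05. Of 24 sterol synthesis genes, 17 lay above 0 and 4 had an unadjusted p under 0.05. Fos, an immediate early gene that dissociation is known to induce, had 4908, 5434 and 4255 CPM in set A0304-A0307 and 6856, 6864 and 5111 CPM in set A0308-A0310 (adjusted p = 0.257). Mt1 and Mt2, metal-binding stress proteins, did not pass either (adjusted p = 0.108 and 0.105).

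**Figure D4:**
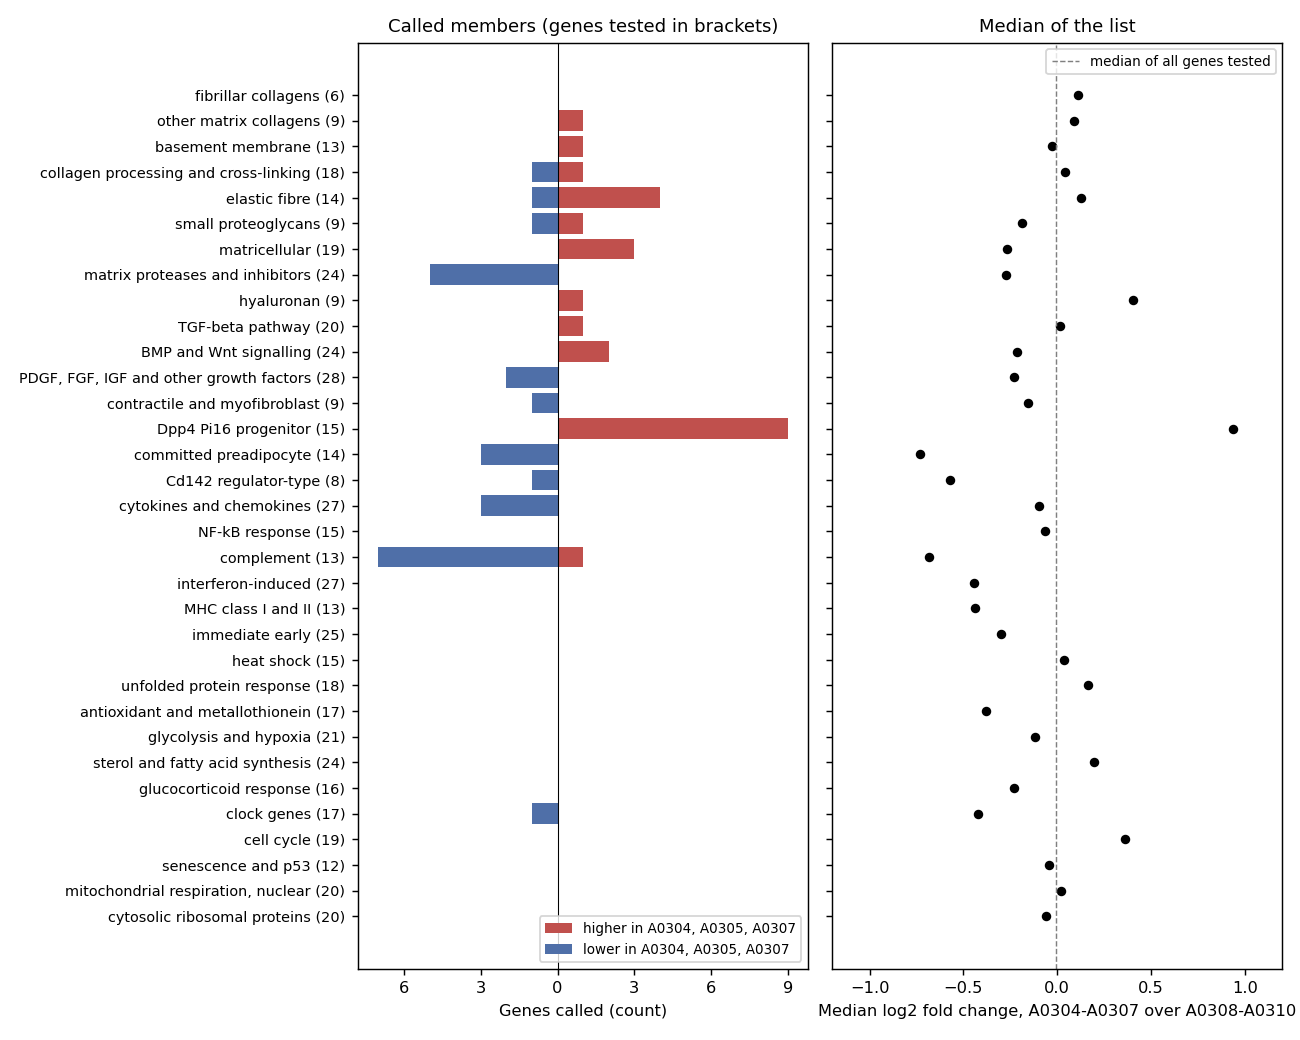
Read-out lists with, on the left, the number of genes called lower (blue, to the left of 0) and higher (red, to the right) in set A0304-A0307, the genes tested in brackets, and, on the right, the median log2 fold change of each list beside that of all genes (dashed). The Dpp4 Pi16 progenitor list has 9 higher calls and complement 7 lower.

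Beyond the lists, the largest higher calls were of genes at modest levels. Mrgprg, a Mas-related G protein-coupled receptor, had 139, 174 and 98.2 CPM in set A0304-A0307, against 31.2, 31.0 and 33.0 CPM in set A0308-A0310 (log2 fold change 2.09 ± 0.19, adjusted p = 0.00591). When missing low values were filled in, its log2 fold change was 0.63 (adjusted p = 0.113), and 1 cell held up to 41.8% of its reads in a hashtag. Stmn4, a microtubule-destabilising stathmin, was higher by 1.85 ± 0.24, and Prdm8, a histone methyltransferase family member, by 1.69 ± 0.22. Adamts19, Aif1l, Daglb and Tmtc2 made up the rest of the 12 with Smpd3, Wnt2, Ccn3 and the Duox pair. Of the largest lower calls, Olfm2 (-2.68 ± 0.29) and Nfasc (-1.90 ± 0.27) were low-level genes at 2.57 to 8.10 CPM in set A0304-A0307, Sned1, an extracellular matrix glycoprotein, fell by 1.66, and Tmem176a by 1.56 on the log2 scale. Lamc3 (-5.08) and Arhgef39 (5.07) were near 0 in 1 set, and in a hashtag a single cell held all of their reads.

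Duox1, a hydrogen peroxide-producing oxidase, and Duoxa1, its maturation factor, are neighbours on chromosome 2 that are read in opposite directions, with starts 1942 bases apart. Duoxa1 stood at 48.6, 57.6 and 69.5 CPM in set A0304-A0307, against 15.8, 13.3 and 21.0 CPM in set A0308-A0310 (log2 fold change 1.79 ± 0.20, adjusted p = 0.00752). Duox1 had 31.7, 36.7 and 37.2 CPM in set A0304-A0307 against 8.21, 6.10 and 16.0 CPM in set A0308-A0310 (log2 fold change 1.79 ± 0.32, adjusted p = 0.042). Neither gene overlapped between the sets, and Duox1 lost its call when cells were thinned, when 4 markers were required and when only cells with their own tag highest were kept. The 2 RefSeq promoters are shown because the genes moved together, and that of C3 as the most abundant complement gene, each 250 bases before to 50 bases after the annotated start (GRCm38.p6). Duox1 covers chr2:122315422-122315721 on the plus strand, Duoxa1 chr2:122313681-122313980 on the minus strand and C3 chr17:57228087-57228386 on the minus strand; capitals mark a TATAAA match.
Duox1: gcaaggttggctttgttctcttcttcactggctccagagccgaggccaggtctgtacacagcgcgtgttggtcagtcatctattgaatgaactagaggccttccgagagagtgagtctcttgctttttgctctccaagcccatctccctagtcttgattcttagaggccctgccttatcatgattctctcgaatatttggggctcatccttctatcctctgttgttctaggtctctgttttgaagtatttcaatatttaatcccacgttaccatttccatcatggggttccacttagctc
Duoxa1: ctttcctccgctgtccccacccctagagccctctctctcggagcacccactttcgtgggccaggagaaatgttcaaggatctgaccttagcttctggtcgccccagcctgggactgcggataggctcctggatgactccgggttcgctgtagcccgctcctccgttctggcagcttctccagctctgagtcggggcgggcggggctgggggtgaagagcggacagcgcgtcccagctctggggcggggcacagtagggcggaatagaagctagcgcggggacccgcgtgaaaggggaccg
C3: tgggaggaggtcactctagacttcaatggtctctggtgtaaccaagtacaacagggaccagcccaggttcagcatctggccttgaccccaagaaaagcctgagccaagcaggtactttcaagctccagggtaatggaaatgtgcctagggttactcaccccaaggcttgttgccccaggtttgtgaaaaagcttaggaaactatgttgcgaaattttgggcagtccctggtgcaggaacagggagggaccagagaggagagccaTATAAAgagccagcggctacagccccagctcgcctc
Searched on both strands were TTCNNNGAA, CCAAT and TATAAA. They occur in 8.30%, 37.4% and 13.6% of 32851 RefSeq promoters of the same length. The only match in these 3 was TATAAA, 15 bases into the C3 transcript on the coding strand; a match or its lack is a description of these letters only. C4b, C2, Cfb and Smpd3 are named without a promoter.

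The sums were also repeated within each of these states, as an alternative added after the data were seen. Fibroblasts with the Dpp4 Pi16 markers and without the C4b Mdk state numbered 122, 137 and 141 in hashtags A0304, A0305 and A0307, against 87, 56 and 41 in A0308, A0309 and A0310. Those with the C4b Mdk markers and without the Dpp4 Pi16 state numbered 50, 62 and 59 in set A0304-A0307 against 146, 132 and 66 in set A0308-A0310. Within either subset edgeR called 0 genes after adjustment, with 966 and 741 genes at an unadjusted p under 0.05; the subsets held fewer cells, and no other tool was run on them. In Dpp4 Pi16 cells, Fbn1 had a log2 fold change of 0.61 ± 0.09 and Fn1 of 0.45 ± 0.06 (adjusted p = 0.157 for both). C4b had a log2 fold change of -2.21 ± 0.89 in Dpp4 Pi16 cells (adjusted p = 0.666), and of -1.22 ± 0.16 in C4b Mdk cells (adjusted p = 0.212), though it is also a marker that chose the subsets. Apoe had -1.72 ± 0.89 in Dpp4 Pi16 cells and -0.83 ± 0.18 in C4b Mdk cells (adjusted p = 0.768 and 0.559), and C2 had -1.52 ± 0.36 and -0.97 ± 0.23 (adjusted p = 0.375 and 0.586). Mmp3 had -1.71 ± 0.29 there (adjusted p = 0.258) but 0.20 ± 0.95 in Dpp4 Pi16 cells, and Fbn1 had -0.08 ± 0.17 in C4b Mdk cells.

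**Figure D5:**
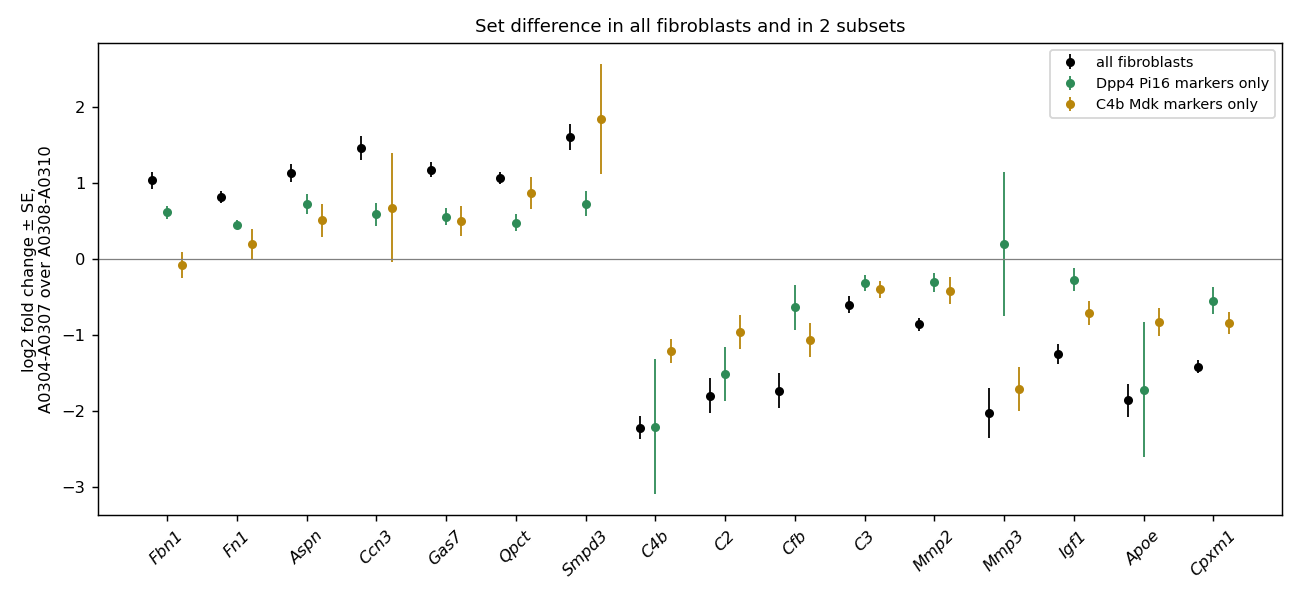
Log2 fold change with its SE, set A0304-A0307 over set A0308-A0310, for 16 genes in all fibroblasts (black), in cells with the Dpp4 Pi16 markers only (green) and in cells with the C4b Mdk markers only (gold). No subset value passes the adjusted threshold; most points lie nearer to 0 than those of all fibroblasts. C4b is a marker that chose the subsets.

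The set difference in fibroblasts was also set against that in macrophages of the same hashtags, with the hashtag as a block. Among 18554 genes tested, 5 differed between the cell types (0.0269%): Apoe, Ctsh, Gm45551, AC160336.1 and Olfr1033. With missing low values filled in, the count was 93. Apoe differed by -2.23 ± 0.09 on the log2 scale (edgeR, adjusted p = 0.00036); its macrophages had 5242, 7322 and 6898 CPM in set A0304-A0307 and 6018, 6295 and 3449 CPM in set A0308-A0310. The other 4 had lower values in fibroblasts and higher ones in macrophages of set A0304-A0307. Without hashtag A0310 the count was 76, without A0304 it was 2, and without A0305, A0307, A0308 or A0309 it was 1. For the other genes named here that were tested, the difference between the cell types did not pass the adjusted threshold, which does not show that they moved alike.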

How the data were processed

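Transcriptome and hashtag libraries of 1 pool of stromal vascular cells were used. Both deposited tables hold whole-number counts, of reads per gene and cell and of hashtag counts per cell, with no collapse to molecules recorded, so counting error is understated. The submitters' processing notes name GRCm38, Bowtie2 2.4.2, cutadapt 2.10 and R 3.6.3; how cells and hashtags were called is not given in the sources used here. In all the table has 12040 cells and 29417 genes; 11750 cells carry 1 hashtag, 278 a doublet call (left out), and 12 no name (left out). For 389 genes seen in over 100 cells, low values are missing, so a 0 can hide a few reads.

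Reads were summed per hashtag and tested with edgeR 4.0.16 (quasi-likelihood, robust, TMM, filterByExpr, Benjamini-Hochberg over all genes, threshold 0.05) in R 4.3.3. The interaction with macrophages used 12 sums with the hashtag as a block. Shares were compared with exact permutation tests in Python 3.11.15 with scipy 1.17.1. Log2 fold changes are set A0304-A0307 over set A0308-A0310. Alternatives used DESeq2 1.42.0, limma 3.58.1 on log2(mean CPM + 1), other size factors, filters, marker limits, thinning, filled low values, 9 hashtags and each hashtag left out. The edgeR fit was tested on simulated data. It recovered 52.0% of the genes changed there, and 3.7% of its calls were false. The simulation used a single fixed spread for all genes, so these rates need not hold for the real sums. A gene that did not pass may therefore still differ. Gene positions came from GENCODE M21; 96.4% of symbols matched.

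Members and gene lists were chosen with earlier results of these data known. Named genes were the 12 largest calls in each direction with non-overlapping values and a mean of at least 20 CPM in 1 set, up to 4 called members of each of 33 lists (or the 2 most abundant where none was called), the rule's markers, and up to 5 called genes in each direction with the smallest interaction p.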

Additional observations from a re-analysis of the deposited data

Results flagged for a closer look

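In 5 genes the difference between the sets was not the same in fibroblasts as in macrophages of the same hashtags, by edgeR's test of the interaction. Apoe, -2.23 on the log2 scale (adjusted p = 0.00036), was lower in fibroblasts of set A0304-A0307 and did not pass in macrophages, where the log2 fold change was 0.37. Ctsh, a lysosomal cathepsin, had 352, 365 and 356 CPM in fibroblasts of set A0304-A0307 and 428, 426 and 439 CPM in those of set A0308-A0310, while macrophages had 531, 486 and 494 CPM in set A0304-A0307 against 283, 257 and 291 CPM in set A0308-A0310. Its interaction was -1.19 (adjusted p = 0.0286).

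The other 3 are a pseudogene, a long noncoding RNA and an olfactory receptor gene. Gm45551 had 1220 to 1422 CPM in fibroblasts of set A0304-A0307 and 1518 to 1778 CPM in set A0308-A0310, while macrophages had 368 to 458 CPM in set A0304-A0307 and 219 to 240 CPM in set A0308-A0310; the interaction was -1.26 (adjusted p = 0.0246). AC160336.1 had 2829 to 3395 CPM in set A0304-A0307 and 3632 to 4300 CPM in set A0308-A0310 in fibroblasts, and 2967 to 3334 CPM in set A0304-A0307 and 1588 to 2050 CPM in set A0308-A0310 in macrophages; the interaction was -1.26 (adjusted p = 0.0286). Olfr1033 had 204 to 243 CPM in set A0304-A0307 and 246 to 287 CPM in set A0308-A0310 in fibroblasts, and 102 to 122 CPM in set A0304-A0307 and 51.0 to 66.3 CPM in set A0308-A0310 in macrophages; the interaction was -1.29 (adjusted p = 0.0331). Of the 5, Apoe was called in the fibroblast comparison, and the other 4 were called in macrophages (adjusted p = 0.013 to 0.0226). Single outlying hashtags were not tested for, since each set has 3.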

How the results depend on the processing

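The 204 calls were 797 with DESeq2 and 348 when all 9 hashtags shared the spread. Within Dpp4 Pi16 cells and within C4b Mdk cells the count was 0. Leaving out 1 hashtag gave 14 to 280 calls, and 1 to 76 for the interaction, which was 93 with low values filled in. Other alternatives gave 174 to 241 calls. All 60 called named genes kept the call with DESeq2 and with RLE size factors. At least 1 other setting, beside left-out hashtags and single states, ended the call of Arhgef39, Bmp6, C7, Cdh11, Dbp, Duox1, Fabp4, Fmod, Hp, Igf1, Mmp11, Mmp3, Mrgprg, Nfasc, Pcolce2, Pltp, Sned1 and Wnt2. The share of the Ptx3 Has1 state differed by 1.24 points, with -0.53 to 3.35 as a hashtag was left out, and that of the Fmo2 Gdf10 state by 1.06, or -2.17 with at least 2 markers; both overlapped throughout the main comparison. Within Dpp4 Pi16 cells the log2 fold change turned sign for Ctsk (0.019), Cxcl12 (0.14), Mmp11 (0.36), Mmp3 (0.20), Pcolce2 (-0.18) and Tmem176a (0.011), and within C4b Mdk cells for Fbn1 (-0.085), Mmp11 (0.014) and Nid1 (-0.0073); the cause was not tested. No paired analysis was possible because the hashtags carry no shared replicate numbers. With 3 sums a set, all from 1 pool, the set and any handling of its suspensions cannot be told apart.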

Other observations

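Further called genes, picked after their values were seen, belong to the acute-phase and interleukin-6 family response, to lysosomal glycan and lipid breakdown, and to calcium-binding proteins. Serpina3n, a secreted protease inhibitor of the acute phase, had 133, 158 and 141 CPM in fibroblasts of set A0304-A0307, against 337, 502 and 361 CPM in those of set A0308-A0310 (log2 fold change -1.50, edgeR adjusted p = 0.00637). Lbp, which binds bacterial lipopolysaccharide, was lower by -1.28 (adjusted p = 0.0105). Osmr, a receptor chain for oncostatin M, was lower at 88.8, 93.2 and 88.2 CPM in set A0304-A0307 against 155, 169 and 199 CPM in set A0308-A0310 (adjusted p = 0.00659), and Stat3, a transcription factor downstream of such receptors, by -0.54 (adjusted p = 0.0431). Lrg1, an acute-phase glycoprotein, was listed without reads in set A0304-A0307 and 5.78, 3.08 and 3.88 CPM in set A0308-A0310. Other genes of this kind were not called by edgeR. Among them were Saa3 (-0.22, adjusted p = 0.978), Cp (-0.09, adjusted p = 0.930) and Il6 (-0.39, adjusted p = 0.669). Socs3 (-0.32, adjusted p = 0.502) and Cebpd (-0.26, adjusted p = 0.766) did not pass either, so the response as a whole was not shown to be lower.

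The lysosomal hydrolases Man2b2, Fuca1, Hexa and Gaa were lower by -0.74, -0.64, -0.58 and -0.60 on the log2 scale. Of the S100 and annexin genes, S100a10, S100a11, S100a16 and Anxa1 were higher, by 0.79, 0.55, 0.48 and 0.35, beside Anxa3 above. Others did not pass, among them S100a6 (0.26, adjusted p = 0.113), S100a4 (-0.55, adjusted p = 0.682), Anxa2 (0.45, adjusted p = 0.216), Anxa5 (0.21, adjusted p = 0.213) and Anxa4 (0.03, adjusted p = 0.963). S100a10 stood at 2394, 2160 and 2433 CPM in set A0304-A0307 against 1417, 1257 and 1317 CPM in set A0308-A0310. Cpxm1, a secreted carboxypeptidase-like protein, had the smallest adjusted p of all genes (0.00143), at 250, 246 and 247 CPM in set A0304-A0307 against 684, 685 and 592 CPM in set A0308-A0310.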
